A study of Rattus norvegicus with 6 samples.

Results

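The miRNAs described here come from 7 hairpins at or beside the antisense strand of Rtl1, a retrotransposon-derived gene of the imprinted Dlk1-Dio3 domain. They were chosen by name, and all 10 named mature miRNAs were found among the 493 miRNAs with deposited counts. They are rno-miR-337-3p, rno-miR-540-3p, rno-miR-431, rno-miR-433-3p and both arms of the hairpins of rno-miR-127-3p, rno-miR-434-3p and rno-miR-136-3p; the species prefix is left out from here on. Small RNA was sequenced from the peri-infarct cortex of male Sprague-Dawley rats in 2 groups of 3 libraries. In the MCAO group the right middle cerebral artery was closed for 90 min before blood flow was restored, and the tissue was taken at 7 days. The MCAO + rTMS group had the same injury and then repetitive transcranial magnetic stimulation (rTMS), in which a coil over the ipsilateral motor cortex delivers magnetic pulses, at 10 Hz for 10 min a day on 7 consecutive days. The paper describes short trains of pulses with longer rests between them, so the stimulation was not continuous. No stimulation of the MCAO group is described, and the labels give no day of tissue collection for the stimulated rats, whose treatment began the day after reperfusion. The paper dates its list of changed miRNAs to 7 days after modeling, without naming a group. Stimulation and any difference in time since reperfusion cannot be told apart. Both groups carried the infarct, and a group without occlusion was not analysed here.

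miRNAs are cut from hairpin precursors, and the 5p and 3p arms of a hairpin are alternative products of the same precursor. In the Dlk1-Dio3 domain the miRNAs are processed from long noncoding transcripts of the maternal chromosome, while Rtl1 mRNA is made from the paternal one. miRNAs transcribed antisense to Rtl1 are fully complementary to its mRNA and can guide its cleavage, and many miRNAs of the domain are abundant in the brain. Neighbouring hairpins can share a primary transcript, whereas each mature arm is selected and degraded on its own.

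In the RefSeq annotation of the GRCr8 assembly, all 7 hairpins lie on the same strand of chromosome 6, in the order miR-337, miR-540, miR-431, miR-433, miR-127, miR-434, miR-136. The last 5 fall inside the span of the Rtl1 gene, and miR-337 and miR-540 lie just before it. The submitters' processing notes name the older rn6 build, so only the order is used. Of the 10 miRNAs, 8 have a mature sequence in the RefSeq table, and these are shown 5′ to 3′ because the seed, bases 2 to 8 in capitals, sets which mRNAs a miRNA can pair with.
miR-337-3p: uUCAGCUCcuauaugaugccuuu
miR-540-3p: aGGUCAGAggucgauccugggc
miR-431: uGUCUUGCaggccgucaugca
miR-433-3p: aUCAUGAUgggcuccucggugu
miR-127-3p: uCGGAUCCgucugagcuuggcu
miR-434-3p: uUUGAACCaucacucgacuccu
miR-434-5p: aGCUCGACucaugguuugaacca
miR-136-3p: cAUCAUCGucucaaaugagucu
The other 2 are miR-127-5p and miR-136-5p.

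The 8 sequences carry 8 different seeds, and no other of the 693 mature rat miRNAs in the table has any of them. These miRNAs are thus grouped by their place in the genome and share no seed among the 8 shown. Their GC content ran from 39.1% for miR-337-3p to 63.6% for miR-540-3p. The longest stretch shared by any pair was the run UUUGAACCA of 9 bases, which opens miR-434-3p at positions 1 to 9 and closes miR-434-5p at positions 15 to 23. No other row of the count table had the same counts as any of the 10 in all 6 libraries.

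Total counts were 10492610 to 13111127 in the MCAO libraries and 13722761 to 15411620 in the MCAO + rTMS libraries, and counts from 1 to 9 are absent from the table. Levels are given as CPM, counts per 1000000 counts of the library total after scaling that total by edgeR's TMM factors, and mature miRNAs are so similar in length that levels were not divided by it. Neuronal miRNAs (3 of 3 listed), used to check the tissue, summed to 323008 to 419817 CPM in the MCAO libraries and to 423051 to 610145 CPM after rTMS. The rise was that of miR-128-3p, with means of 212040 and 341038 CPM (adjusted p = 0.0358 in edgeR). The means of miR-9a-5p were 167618 and 150023 CPM, with overlap. Those of miR-124-3p were 5318 and 3793 CPM, lower without overlap but not called (adjusted p = 0.0861 in edgeR). MCAO + rTMS replicate 3 stood apart. Against the mean of the other 2 libraries of its group, its level differed by over 1 on the log2 scale in 14.4% of the tested miRNAs. The summed levels of other cell types' miRNAs mostly separated the groups too. Oligodendrocyte miRNAs (3 of 3 listed) lay between 572 and 786 CPM in the MCAO group and between 963 and 2106 CPM in the MCAO + rTMS group. This sum was nearly all miR-219a-2-3p, whereas miR-338-3p had means of 21.3 and 12.9 CPM and miR-219a-5p was listed at 0 in all MCAO + rTMS libraries. The ranges for red blood cell miRNAs (2 of 3 listed, without miR-144-3p) were 141 to 302 and 513 to 637 CPM, with miR-486 higher and miR-451-5p lower in edgeR. Those for muscle miRNAs (5 of 7 listed, without miR-208a-3p and miR-208b-3p) were 108 to 170 and 254 to 406 CPM, with miR-1-3p and miR-206-3p higher and miR-499-5p, miR-133b-3p and miR-133a-3p lower in edgeR. Myeloid miRNAs (3 of 3 listed) went from 21.1 to 27.0 CPM down to 6.61 to 9.33 CPM. Only the sums of the endothelial miRNAs (2 of 2 listed) overlapped, at 2993 to 6298 and 2017 to 3293 CPM. This sum was nearly all miR-126a-3p, with means of 4842 and 2699 CPM (adjusted p = 0.0539 in edgeR). miR-126a-5p was lower without overlap, with means of 72.1 and 30.9 CPM (adjusted p = 0.00411 in edgeR). The part of these differences in the results below was not tested.

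miR-127-3p was by far the most abundant of the 10. Among all 493 miRNAs it ranked 5 by mean level without rTMS and 6 with it. Its level was 24334, 26320 and 21889 CPM in MCAO replicates 1, 2 and 3 and 51414, 54702 and 70363 CPM in MCAO + rTMS replicates 1, 2 and 3. All stimulated libraries were thus above all MCAO libraries, and the mean went from 24181 ± 2220 to 58826 ± 10125 CPM (SD, n = 3 each), which is 2.43-fold. On the log2 scale the change was 1.28 ± 0.18 (standard error, SE, as after ± for the other log2 changes). Its adjusted p was 0.00122 in edgeR, from the quasi-likelihood F-test corrected by Benjamini-Hochberg over the 452 miRNAs tested. In bulk tissue, a different number of cells that make a miRNA and a different amount per cell cannot be told apart.

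The other arm of the same hairpin did not follow. miR-127-5p was at 197, 181 and 186 CPM in the MCAO libraries and at 195, 170 and 192 CPM in the MCAO + rTMS libraries. These values overlap, and the log2 difference was -0.02 with a 95% interval from -0.40 to 0.36.

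miR-433-3p was the second miRNA with a higher level after rTMS. It was at 968, 925 and 1200 CPM in the MCAO group, against 1555, 1738 and 1913 CPM after rTMS. The groups did not overlap, and the log2 change was 0.75 ± 0.19 (adjusted p = 0.0127 in edgeR). This call depended on the scaling. With library totals only it changed by 0.10 on the log2 scale (adjusted p = 0.714 in edgeR), and with upper-quartile factors by 0.46 (adjusted p = 0.0911 in edgeR). Under the latter 18.8% of all tested miRNAs were called higher and 38.1% lower, and of the 10 only miR-127-3p was higher, with 5 lower.

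**Figure D1:**
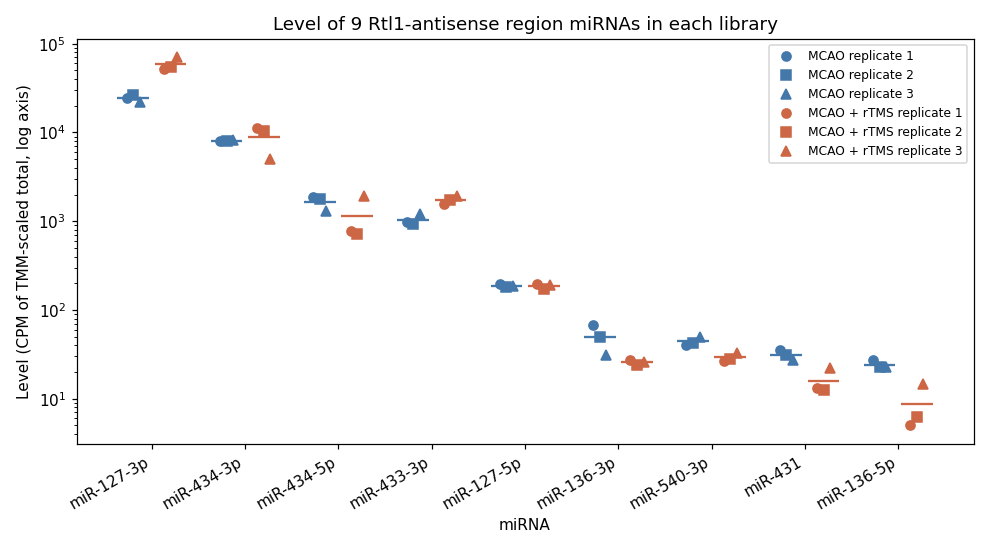
Level of 9 miRNAs in each library, in CPM of the TMM-scaled total on a log axis, with MCAO libraries in blue and MCAO + rTMS libraries in orange, 1 symbol per replicate and a bar at each group mean. miR-127-3p and miR-433-3p lie higher in all 3 stimulated libraries, while miR-431, miR-540-3p and both miR-136 arms lie lower; miR-337-3p is left out because it was listed at 0 in the MCAO + rTMS group.

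Of the lower miRNAs, miR-136-5p had the largest fitted decrease apart from miR-337-3p, which was listed at 0 in 1 group. Its level was 27.1, 22.5 and 22.6 CPM in the MCAO group, against 5.04, 6.24 and 14.6 CPM after rTMS. The third stimulated library was the highest of its group but still below every MCAO library. The log2 change was -1.49 ± 0.40 (adjusted p = 0.016 in edgeR).

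miR-136-3p, from the other arm, was also lower. It went from 67.4, 49.2 and 31.4 CPM in MCAO replicates 1, 2 and 3 to 27.5, 24.3 and 26.2 CPM in the MCAO + rTMS group. The stimulated libraries lay close together, whereas the MCAO libraries were widely spread and the lowest was only slightly above the stimulated ones. Its log2 change was -0.92 ± 0.28 (adjusted p = 0.0274 in edgeR).

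miR-431, studied in neurons as a regulator of the Wnt antagonist receptor Kremen1, was at 35.6, 31.3 and 27.3 CPM in the MCAO group. In the MCAO + rTMS group it was at 13.1, 12.6 and 22.5 CPM, again with the third library the nearest to the MCAO levels. The log2 change was -0.97 ± 0.27 (adjusted p = 0.0199 in edgeR). miR-540-3p, encoded outside the Rtl1 span, went from 40.5, 42.2 and 50.04 CPM to 26.8, 28.2 and 32.9 CPM. The groups did not overlap, and the log2 change was -0.60 ± 0.18 (adjusted p = 0.0274 in edgeR).

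miR-337-3p was the rarest of the 10. It had 13, 12 and 23 reads in the MCAO libraries and was listed at 0 in all 3 MCAO + rTMS libraries. Since no count under 10 is listed, a 0 here allows up to 9 reads, which is 0.677 to 0.875 CPM in the stimulated libraries, against 0.828 to 1.44 CPM in the MCAO libraries. The test called it lower (adjusted p = 0.00559 in edgeR), but with each 0 set to 9 its change was -0.41 on the log2 scale (adjusted p = 0.292 in edgeR). A miRNA that passed the filter on low counts only through its MCAO libraries had to differ in this way, so its call is not counted as support.

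The miR-434 arms varied widely between the stimulated libraries. miR-434-3p was at 8079, 8016 and 8233 CPM in the MCAO group, the tightest values of any of the 10, and at 11243, 10267 and 5060 CPM in the MCAO + rTMS group. miR-434-5p was at 1893, 1798 and 1296 CPM in the MCAO group, against 766, 725 and 1920 CPM after rTMS. For each arm, MCAO + rTMS replicate 3 lay on the opposite side of the MCAO libraries from the other 2 stimulated libraries. The log2 differences were 0.13 (95% interval -0.55 to 0.80) for the 3p arm and -0.55 (-1.47 to 0.38) for the 5p arm. Without MCAO + rTMS replicate 3 both arms passed the threshold, with log2 fold changes of 0.43 (adjusted p = 0.0291) and -1.13 (adjusted p = 0.00424), in the edgeR test.

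The order of the levels was similar in both groups. In the MCAO group it ran miR-127-3p, miR-434-3p, miR-434-5p, miR-433-3p, miR-127-5p, miR-136-3p, miR-540-3p, miR-431, miR-136-5p, miR-337-3p, and the only neighbours whose libraries overlapped were miR-136-3p and miR-540-3p. In the MCAO + rTMS group miR-433-3p stood before miR-434-5p and miR-540-3p before miR-136-3p. The libraries overlapped within each of these exchanged pairs and between miR-431 and miR-136-5p.

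Of the 10 miRNAs, 2 had a higher and 5 a lower level after rTMS, and 3 did not pass the threshold of an adjusted p under 0.05 in edgeR. Over all 452 tested miRNAs 55.3% were called, 27.2% higher and 28.1% lower. The same 7 miRNAs were those whose CPM values did not overlap between the groups, where 66.8% of all tested miRNAs did not overlap. A count of 7 among 10, including miR-337-3p, is therefore near the level of the whole table. The median log2 fold change of the 10 was -0.57, or -0.48 with miR-337-3p at 9 reads in place of 0, against -0.21 over all tested miRNAs. The count varied with the libraries used. It was 2 without MCAO replicate 1, 2 without MCAO replicate 2, 4 without MCAO + rTMS replicate 1 and 3 without MCAO + rTMS replicate 2, and miR-127-3p and miR-337-3p were called in each of these fits. Calls over the whole table fell too, from 250 of 452 tested miRNAs. In these fits they were 181 of 455, 179 of 467, 216 of 469 and 183 of 467, in the same order. miR-136-3p also lost its call without MCAO + rTMS replicate 3, the fit in which both miR-434 arms gained theirs.

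**Figure D2:**
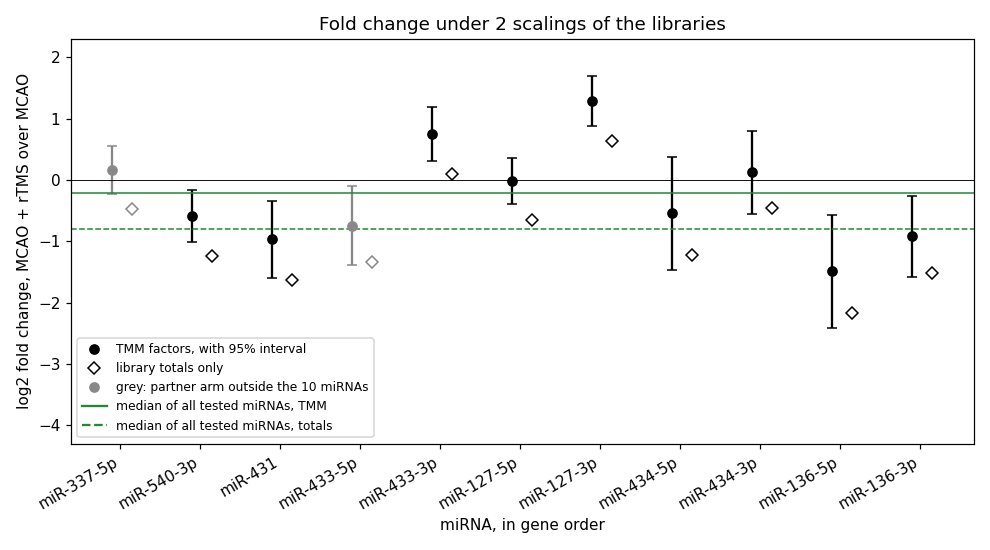
Log2 fold change between MCAO + rTMS and MCAO for 9 of the miRNAs and, in grey, 2 partner arms, in gene order. Circles with 95% intervals use TMM factors, diamonds use library totals only, and the green lines mark the median of all tested miRNAs under each scaling (-0.21 and -0.80); miR-127-3p stays above 0 under both, while the diamond of miR-433-3p is at 0.10.

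The scaling moved every value in the same direction. With library totals only, the median log2 fold change of all tested miRNAs went from -0.21 to -0.80, and 12.2% of the tested miRNAs were called higher and 46% lower. Of the 10, 1 was then higher, miR-127-3p with a log2 fold change of 0.64 (adjusted p = 0.00367 in edgeR), and 7 were lower. The 7 were the 5 named above together with miR-127-5p (-0.65) and miR-434-5p (-1.23). A change of scaling shifts most log2 fold changes by similar amounts, and subtracting the median largely removes this shift. Relative to the median, the log2 fold changes thus hardly depended on the scaling, which is not counted as support. Under the TMM scaling and then without it, they were 1.49 and 1.44 for miR-127-3p, 0.96 and 0.90 for miR-433-3p, -0.72 and -0.72 for miR-136-3p, and -1.28 and -1.37 for miR-136-5p.

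Ratios of miRNAs within a library do not depend on the scaling, so the arms of a hairpin were compared in that way. Of the 7 hairpins, 6 have both arms in the table, since the other arms of miR-337, miR-433 and miR-540 are listed although they are not among the 10. The change of log2 (3p count over 5p count) was tested with limma over the 138 hairpins with both arms tested. Over all of them 42.8% changed with an adjusted p under 0.05, in 19.6% toward the 3p arm and in 23.2% toward the 5p arm, and the ratios of the groups did not overlap in 52.2%.

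miR-127 had 123, 146 and 118 reads of the 3p arm for each read of the 5p arm in the MCAO libraries. In the MCAO + rTMS libraries it had 264, 321 and 367. The 3p arm thus gained over the 5p arm in every stimulated library, and the log2 ratio rose by 1.29 ± 0.25 (adjusted p = 0.00915 in limma). miR-433, the neighbouring hairpin, shifted the same way. Its ratio was 115, 133 and 194 in the MCAO group, against 313, 368 and 615 after rTMS, a log2 difference of 1.52 ± 0.37 (adjusted p = 0.0183 in limma). The other arm, miR-433-5p, had only 32 to 132 reads per library. Its level was 8.40, 6.93 and 6.20 CPM in the MCAO group, against 4.96, 4.72 and 3.11 CPM after rTMS, without overlap but just short of the threshold (log2 change -0.75 ± 0.28, adjusted p = 0.0509 in edgeR). For the ratio of these arms the adjusted p was 0.0664 without MCAO replicate 1, 0.0627 without MCAO replicate 2 and 0.0638 without MCAO + rTMS replicate 2, in limma.

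The ratio of miR-434 was 4.27, 4.46 and 6.35 in the MCAO group, against 14.7, 14.2 and 2.63 after rTMS. The first 2 stimulated libraries were above all MCAO libraries and the third was below them. For miR-136 the ratio was 2.49, 2.18 and 1.39 in the MCAO group, against 5.45, 3.89 and 1.80 after rTMS, with the third stimulated library inside the MCAO range. The log2 differences were 0.73 ± 0.72 (adjusted p = 0.459 in limma) and 0.77 ± 0.48 (adjusted p = 0.268 in limma). Without MCAO + rTMS replicate 3 they were 1.54 (adjusted p = 0.01 in limma) for miR-434 and 1.22 (adjusted p = 0.0422 in limma) for miR-136.

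MCAO + rTMS replicate 3 departed from the mean log2 ratio of its group's other libraries by -2.45 for miR-434 and by -1.35 for miR-136. For miR-127 and miR-433, in contrast, it departed by 0.33 and 0.85, toward the 3p arm. Departures over 1 in size occurred in that library for 31.2% of the 138 hairpins, against 8.0% to 20.3% in the other 5 libraries.

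**Figure D3:**
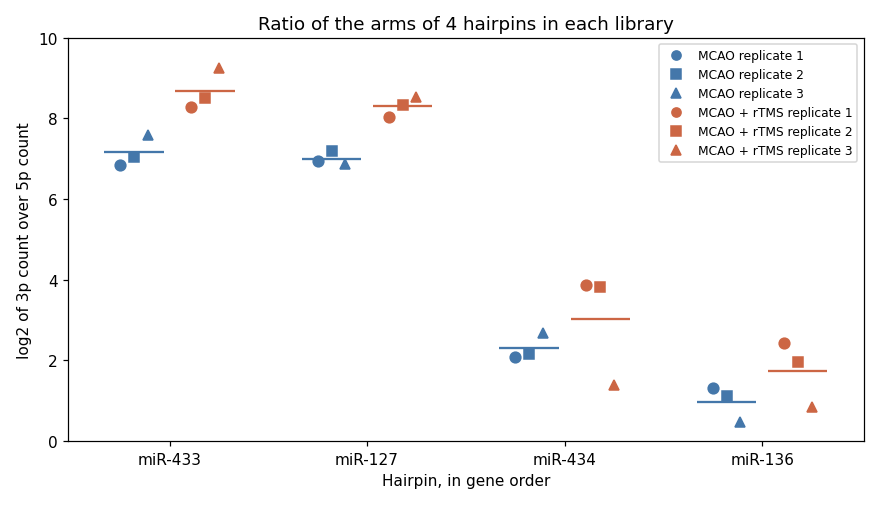
Log2 of the 3p count over the 5p count, which needs no scaling of the libraries, for 4 hairpins in gene order, with 1 symbol per library and a bar at each group mean. All stimulated libraries lie above all MCAO libraries for miR-433 and miR-127, while MCAO + rTMS replicate 3 lies below the MCAO libraries for miR-434 and among them for miR-136.

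The remaining hairpins gave less. miR-337 is the only one of the 6 in which the 5p arm prevailed. miR-337-5p was at 306, 291 and 343 CPM in the MCAO group, against 367, 345 and 336 CPM after rTMS, so the abundant arm of this hairpin overlapped between the groups (log2 difference 0.16, 95% interval -0.23 to 0.55). The fitted change of its arm ratio, -4.84 with 0.5 added to each count and -1.89 with 5 added, is set by the listed zeros of miR-337-3p. For miR-540 the 5p arm was at 0 in MCAO replicate 2 and had at most 27 reads elsewhere, and its ratio of 22.25 to 33.8 in the stimulated libraries lay around the 27.7 and 29.6 of the other MCAO libraries.

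Together the 10 miRNAs took 4.27%, 4.32% and 4.59% of the counts in the MCAO libraries and 5.63%, 5.85% and 5.53% in the MCAO + rTMS libraries. The groups did not overlap, and the two-sided exact permutation test gave p = 0.1, the smallest that 3 against 3 libraries allow. The increase lay in miR-127-3p, which went from 3.002% ± 0.0753 to 4.69% ± 0.232 of the library total (SD, n = 3 each). The other 9 combined went the other way, from 1.39% ± 0.134 to 0.984% ± 0.302 (SD, n = 3 each, p = 0.1 in the same exact test). With library totals only, however, the median log2 fold change of all tested miRNAs was -0.80 and 46% were called lower. The lower share of these 9 is thus not read as particular to them. Within the 10, miR-127-3p made up 68.3%, 70.4% and 66.5% of the reads of the 10 in the MCAO group, against 78.8%, 80.8% and 88.5% after rTMS. miR-434-3p, the second in level, fell from 22.7%, 21.4% and 25.0% of these reads to 17.2%, 15.2% and 6.36%, without overlap and with an exact p = 0.1. These shares are parts of the same total, so the rise of miR-127-3p by itself lowers the others. Even miR-433-3p, called higher by level, fell in mean share, from 2.94% to 2.45%. The lower share of miR-434-3p is thus not read as a fall in its level, which overlapped between the groups.

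**Figure D4:**
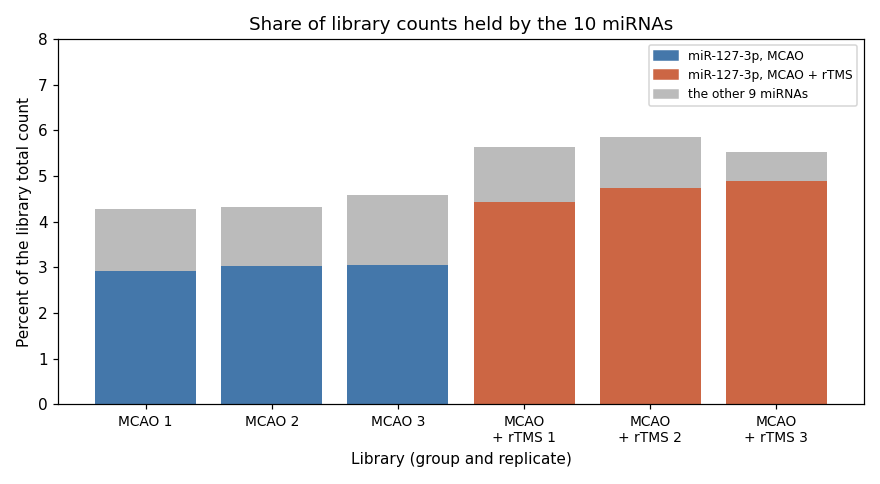
Percent of each library's total count taken by miR-127-3p (blue in MCAO, orange in MCAO + rTMS) and by the other 9 miRNAs together (grey). The whole bar is higher in the stimulated libraries (5.53% to 5.85% against 4.27% to 4.59%), while the grey part is smaller.

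Whether the miRNAs moved together was also read from ratios within libraries. Leaving out miR-337-3p, the other 9 form 36 pairs, and in 22 of them, 61.1%, the ratio of the pair did not overlap between the groups. Among all 101926 pairs of tested miRNAs the share was 61.8%. The balance among these neighbouring miRNAs thus shifted between the groups about as often as that of any pair of miRNAs in the table.

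The miRNAs whose profile over the 6 libraries was most like that of miR-127-3p came from outside the 10. By Euclidean distance of centred log2 (CPM + 1) they were miR-378a-3p (0.0957), let-7i-5p (0.258), miR-378b (0.258), miR-106b-3p (0.294) and miR-30c-2-3p (0.371). miR-433-3p was the closest of the 10 and ranked 54 among the 451 other tested miRNAs. The remaining 8 ranked between 168 and 407.

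The other miRNAs of the domain were counted in 2 lists. In the cluster from miR-379 to miR-410, which lies further along the chromosome, 56 of 60 listed mature miRNAs were tested, of which 14 were higher, 17 lower and 25 not called in edgeR. This near balance depended on the scaling. Library totals alone gave 4 higher and 28 lower, while upper-quartile factors gave 10 and 25. The share called, 55.4%, is that of the whole table, and the median log2 fold change was -0.17. miR-485-3p rose from 167 ± 1.48 to 891 ± 257 CPM (SD, n = 3 each). miR-410-5p, at only 0, 14 and 15 reads in the MCAO libraries, went from 0.698 ± 0.614 to 3.78 ± 0.645 CPM (SD, n = 3 each). miR-377-3p and miR-300-5p had mean levels of 2.79 and 1.73 CPM in the MCAO group and were listed at 0 in all MCAO + rTMS libraries. Of the 17 lower miRNAs, 4 were listed at 0 in that whole group, these included. They passed the filter on low counts only through their MCAO libraries, so their calls are not counted as support. With each 0 set to 9, 14 of the cluster were higher and 16 lower. Of the 11 miRNAs in the list of other domain members, 5 were higher, 1 was lower and 5 were not called, with a median log2 fold change of 0.68 against the -0.21 of all tested miRNAs. miR-493-5p and miR-770-3p, encoded before the Rtl1 region, rose by log2 fold changes of 1.63 and 1.32, while miR-665, encoded between miR-540 and miR-431, fell by 1.60 on the log2 scale (adjusted p = 0.000352, 0.0115 and 0.0128 in edgeR). With library totals only, 1 of these 11 was higher and 2 were lower. miR-6331, annotated within the miR-379 to miR-410 stretch but in neither list, went from 101 ± 23.7 to 371 ± 20.8 CPM (SD, n = 3 each). Its log2 change was 1.87 ± 0.22 (adjusted p = 0.000642 in edgeR). It is named after its values were seen, and other genes of the domain in neither list are not described.

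**Figure D5:**
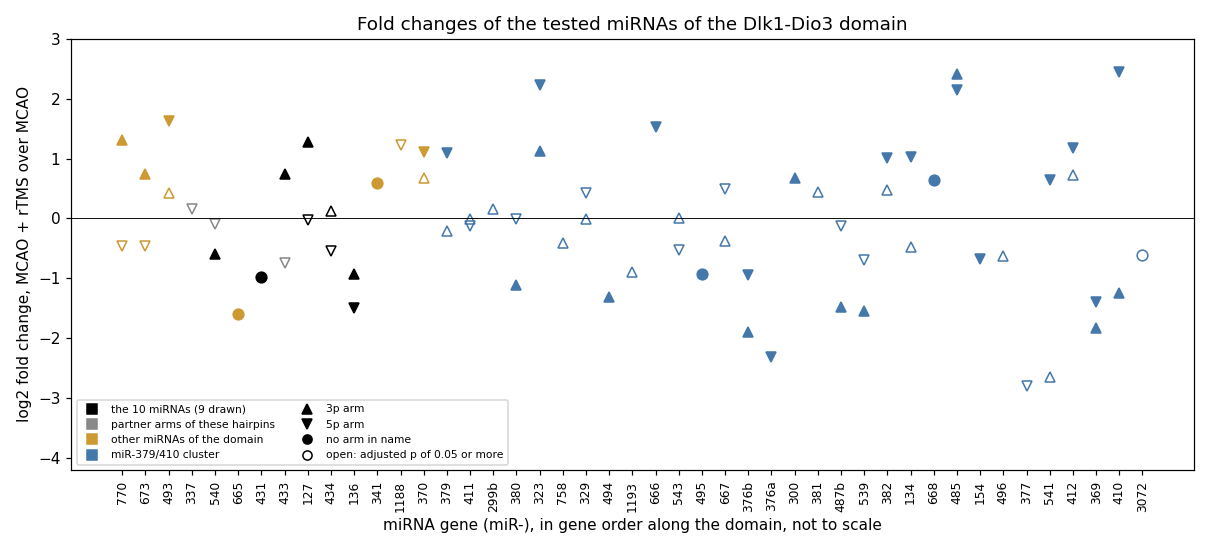
Log2 fold change between MCAO + rTMS and MCAO for 71 mature miRNAs that could be matched to a gene, in gene order and not to scale. They are from the 10, their partner arms (grey) and the 2 other domain lists. Filled symbols mark an adjusted p under 0.05 in edgeR, and 5 miRNAs with a group at 0 are not drawn. Higher and lower miRNAs both occur along the order, and miR-127-3p at 1.28 stands near miR-136-5p at -1.49.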

How the data were processed

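Per the labels, small RNA libraries were prepared by adapter ligation and gel size selection, and the submitters' processing notes name bcl2fastq, BWA, DESeq2 and the rn6 build without roles or versions. The counting rule, including for reads that match several miRNAs, is not given in the sources used here. The authors deposited raw read counts per mature miRNA for 493 miRNAs, and the same counts for a selection of 73, both without normalization. Depth was 10492610 to 15411620 counts per library, which limits precision most for miRNAs near 10 reads.

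Groups and replicate numbers came from the sample titles. The methods give n = 3 for the rats' tissue used in sequencing, but the labels do not tie each library to 1 rat, so p-values measure the spread between these libraries. The 10 miRNAs, the lists and the tests were chosen with earlier results of these data known. All 452 miRNAs passing filterByExpr were fitted with edgeR 4.0.16 (TMM, quasi-likelihood test, Benjamini-Hochberg) in R 4.3.3; standard errors are the log2 fold change over the square root of F. Arm ratios used limma 3.58.1 with 0.5 added to counts. Both fits were tested on simulated data. Named miRNAs are the 10, their partner arms, the cell type miRNAs, in each domain list the 2 largest called changes per direction, and the 5 profiles nearest to miR-127-3p. miR-6331 was named outside this rule. Alternatives were other scalings, filters and pseudocounts, DESeq2 1.42.0, limma-voom, a replicate block, zeros set to 9 and each library left out. Sequences and gene order are from RefSeq (GRCr8). Figures used Python 3.11.15 and matplotlib 3.10.9.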

Additional observations from a re-analysis of the deposited data

How the results depend on the processing

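miR-127-3p stayed higher with an adjusted p under 0.05 in all 16 alternative edgeR, DESeq2 and limma-voom fits, with log2 fold changes from 0.64 to 1.38. Among these 16 fits the call was lost in 6 for miR-136-3p and for miR-540-3p, in 5 for miR-431, in 4 for miR-433-3p and in 3 for miR-136-5p. The number of all miRNAs called, 250, ran from 179 to 263. The number of the 10 called, 7, was from 2 to 8 with 1 library left out. These fits called 179 to 253 of all miRNAs. The 8 came without MCAO + rTMS replicate 3, where 253 of 468 tested miRNAs were called. With the replicate block 4 of the 10 were called, and 180 of all 452 tested miRNAs. The deviations of same-numbered libraries from their group means had correlations of 0.20, -0.12 and -0.11. With 3 libraries per group these values cannot settle whether the numbers pair the libraries. Among the 11 listed other domain miRNAs the number called, 6, was 3 with library totals only and from 3 to 6 with 1 library left out. The arm change of miR-127 was 1.29 with p = 0.1 in the exact permutation test, which cannot go lower, and from 1.18 to 1.42 with 1 library left out (adjusted p = 0.0527 in limma without MCAO + rTMS replicate 2). With 1 library left out, the arm change was from 0.30 to 1.54 for miR-434, from 0.43 to 1.22 for miR-136 and from -2.62 to 0.0020 for miR-540, whose only value above 0 came without MCAO replicate 2. The gain in share of the 10, 1.28 percentage points, was from a mean of 4.39% to 5.67% of the library total. With the 10 most abundant other miRNAs left out of the total, the mean share went from 13.7% to 20.1%, a gain of 6.38. These gains have different bases and are not comparable as percentage points.

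Small differences changed sign. miR-127-5p was at 0.037 with DESeq2 as with RLE factors, 0.048 when the scaling ignored the 10 most abundant miRNAs, 0.075 with zeros set to 9 and from -0.057 to 0.075 with 1 library left out. miR-434-3p was at -0.46 with library totals only, -0.18 with upper-quartile factors and from -0.082 to 0.43 with 1 library left out. miR-337-5p was at -0.48 and -0.14 under these 2 scalings, and miR-540-5p at 0.85 with limma-voom, 0.46 with the replicate block and from -0.64 to 0.39 with 1 library left out. The scalings moved the median of all miRNAs with them, and the cause of the other changes was not tested.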
